A study of Mus musculus with 12 samples.

Results

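Transcripts of 10 genes of the myofibroblast and stellate cell cytoskeleton were measured in mouse liver: Acta2, Tagln, Des, Vim, Myl9, Tpm1, Tpm2, Cnn2, Cnn3 and Ngfr. They were taken by symbol, as 10 of the 18193 genes that at least 1 probe set of the array names alone, and 28 probe sets name them. Where several probe sets name a gene, the 1 with the brightest average over the 12 arrays stands for it, with a probe set that may bind other sequences (suffix _x_at) taken only in the absence of another. All 10 passed the limit of a mean signal of 20 below which a probe set was called dim, with means between 33.8 for Des and 748.9 for Cnn3.

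The livers came from C57BL/6 mice that were 8 weeks old at the start and ate their diet for 8 weeks. The MCD+HF+Met group received a high-fat diet lacking methionine and choline, with 0.1% metformin mixed in, the MCD+HF group the same diet without metformin, and the NC group normal chow. Each group held 4 mice with 1 array of whole-liver RNA each, so the diet groups model steatohepatitis through the diet alone, and a signal from stellate cells is measured within RNA from all liver cells. Signals are intensities on the linear scale to which the authors set the average of every array at 100.

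Hepatic stellate cells store vitamin A in the space between sinusoidal endothelium and hepatocytes, and in injured liver they turn into myofibroblasts. That change is recognised by contractile filaments built of smooth muscle actin (Acta2), tropomyosins (Tpm1, Tpm2), regulatory myosin light chain (Myl9) and the actin-binding proteins transgelin (Tagln) and calponins (Cnn2, Cnn3), and by the intermediate filament proteins desmin (Des) and vimentin (Vim). Desmin marks stellate cells of rodents also at rest, vimentin is found in leukocytes and endothelium as well, and Ngfr is the p75 neurotrophin receptor, which stellate cells carry. Genes of smooth muscle contraction are textbook targets of serum response factor (SRF), which binds the CArG box, a DNA element of CC and GG enclosing only A or T bases.

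Promoter sequence was printed for 4 members chosen after the search. They are the 3 that held a CArG box or a similar element, and Vim as an example of those that held neither. The contractile genes Tpm1, Tpm2 and Cnn3 held neither as well. The stretches cover the 250 bases up to the RefSeq start site on GRCm38.p6, written 5′ to 3′ on the strand of the gene, at chr19:34255374-34255623 (minus strand) for Acta2, chr2:156775214-156775463 (plus) for Myl9, chr10:79988350-79988599 (plus) for Cnn2 and chr2:13574061-13574310 (plus) for Vim. Capitals mark a CArG box or a CArG-like element, in which 1 of the bases between CC and GG is C or G.
Acta2: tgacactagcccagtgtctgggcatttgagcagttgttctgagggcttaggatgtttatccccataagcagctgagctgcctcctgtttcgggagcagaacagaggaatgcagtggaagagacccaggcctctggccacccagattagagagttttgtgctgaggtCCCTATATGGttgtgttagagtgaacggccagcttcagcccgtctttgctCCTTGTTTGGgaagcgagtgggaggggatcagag
Myl9: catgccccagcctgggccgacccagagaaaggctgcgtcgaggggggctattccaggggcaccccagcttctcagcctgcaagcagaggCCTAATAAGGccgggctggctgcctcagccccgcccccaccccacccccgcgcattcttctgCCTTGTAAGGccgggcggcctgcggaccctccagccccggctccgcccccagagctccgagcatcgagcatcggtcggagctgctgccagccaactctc
Cnn2: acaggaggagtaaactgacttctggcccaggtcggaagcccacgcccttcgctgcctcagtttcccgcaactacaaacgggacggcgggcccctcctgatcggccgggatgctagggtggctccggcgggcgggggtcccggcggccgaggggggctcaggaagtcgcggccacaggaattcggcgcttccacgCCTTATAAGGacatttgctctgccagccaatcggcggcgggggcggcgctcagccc
Vim: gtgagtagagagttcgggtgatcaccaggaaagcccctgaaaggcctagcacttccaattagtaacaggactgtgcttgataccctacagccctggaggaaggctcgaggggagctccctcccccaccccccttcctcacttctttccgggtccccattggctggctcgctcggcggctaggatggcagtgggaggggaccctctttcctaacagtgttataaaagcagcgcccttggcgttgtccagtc

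In Acta2 the search found no CArG box and 2 CArG-like elements, at 84 to 75 and at 34 to 25 bases before the start. Myl9 held the CArG box CCTAATAAGG at 161 to 152 bases before the start and the CArG-like CCTTGTAAGG at 99 to 90, and Cnn2 the CArG box CCTTATAAGG at 56 to 47. Neither element was in the windows of Vim, Des, Tpm1, Tpm2, Cnn3 or Ngfr, and Tagln was not among the entries. Both strands were searched and a CArG box was not counted as CArG-like. Of 32851 promoter windows of this length, 1.47% held a CArG box and 7.24% a CArG-like element. A match is a run of letters and no measured site of binding.

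Acta2, the smooth muscle actin that defines the myofibroblast (probe set 1416454_s_at, whose suffix means that it may match transcripts of more than 1 gene), had signals of 173.2, 207.8, 311.6 and 154.8 in MCD+HF+Met livers. It had 194.0, 153.7, 106.0 and 144.0 in MCD+HF livers and 85.2, 67.6, 74.7 and 59.8 in NC livers. Every liver of both diet groups lay above every NC liver, while the diet groups overlapped, with the highest value in an MCD+HF+Met liver. The group means were 211.9 ± 70.04 for MCD+HF+Met, 149.4 ± 36.15 for MCD+HF and 71.83 ± 10.8 for NC (SD, n = 4 each).

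Tagln, the transgelin of smooth muscle (1423505_at), had 90.4, 84.6, 184.6 and 67.3 in MCD+HF+Met livers. The MCD+HF livers had 156.4, 102.5, 78.7 and 105.8, and the NC livers 20.8, 26.4, 65.8 and 20.5. The lowest diet-fed liver was only just above NC replicate 3, which stood well over the other NC livers, and the diet groups overlapped over most of their range. Replicate 3 of MCD+HF+Met was the highest of its group for Tagln as it was for Acta2.

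Myl9, the regulatory light chain that smooth muscle myosin needs for contraction (1452670_at), was dimmer. Its signals were 51.5, 41.9, 58.7 and 34.4 with MCD+HF+Met, 52.3, 54.7, 43.6 and 43.4 with MCD+HF and 25.6, 22.8, 15.0 and 18.6 with NC. No diet-fed liver fell into the NC range, and the means of the diet groups, 46.63 ± 10.67 in MCD+HF+Met and 48.5 ± 5.857 in MCD+HF, differed by less than either SD.

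Tpm1, a tropomyosin that lies along actin filaments (1423721_at), had closely spaced values with metformin. The MCD+HF+Met livers had 318.8, 335.4, 303.6 and 309.0 (mean 316.7 ± 13.96, SD, n = 4), the MCD+HF livers 325.9, 299.6, 255.5 and 233.9, and the NC livers 87.8, 81.4, 129.0 and 82.3. All diet-fed livers were above all NC livers, and the coefficient of variation in MCD+HF+Met was 4.409%. The companion gene Tpm2 (1419738_a_at), coding for beta-tropomyosin, went another way. It had 106.6, 119.8, 191.0 and 97.2 in MCD+HF+Met livers, 90.1, 86.7, 71.8 and 88.7 in MCD+HF livers and 97.3, 113.0, 127.6 and 198.5 in NC livers. The MCD+HF livers lay below all livers of both other groups, and those other groups covered nearly the same range.

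Of the calponins, which bind actin and are known to restrain myosin in smooth muscle, Cnn2 (1450981_at) had 78.6, 127.2, 164.7 and 68.7 in MCD+HF+Met livers, 137.8, 127.3, 99.7 and 89.5 in MCD+HF livers and 45.3, 50.1, 63.2 and 72.3 in NC livers. MCD+HF livers were all above NC, and 1 MCD+HF+Met liver fell within the NC range. Cnn3 (1426724_at), the acidic calponin, which is found outside muscle too, spanned 671.4 to 832.1 in MCD+HF+Met, 637.7 to 742.2 in MCD+HF and 724.7 to 926.3 in NC. The 3 ranges overlapped.

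Vim (1450641_at) had 363.2, 346.9, 469.8 and 327.3 in MCD+HF+Met livers. In MCD+HF livers it had 1138.1, 1170.9, 686.7 and 794.9, and in NC livers 151.5, 137.7, 109.3 and 132.6. Vim was the member whose 3 groups did not overlap with each other at all, with MCD+HF highest and NC lowest. The means were 376.8 ± 63.71 for MCD+HF+Met, 947.6 ± 243.3 for MCD+HF and 132.8 ± 17.57 for NC (SD, n = 4 each).

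Des (1426731_at), the intermediate filament protein of muscle that also serves as a rodent stellate cell marker, had 46.9, 56.9, 45.1 and 24.2 in MCD+HF+Met livers, 32.8, 47.8, 25.5 and 12.2 in MCD+HF livers and 17.3, 21.0, 44.0 and 31.9 in NC livers. All groups overlapped for Des. Ngfr (1454903_at) had 73.6, 55.3, 66.3 and 23.8 in MCD+HF+Met livers, 39.6, 43.9, 33.7 and 60.8 in MCD+HF livers and 31.1, 23.8, 14.2 and 32.9 in NC livers. MCD+HF livers were above all NC livers by a narrow margin, and MCD+HF+Met replicate 4 lay in the NC range.

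**Figure D1:**
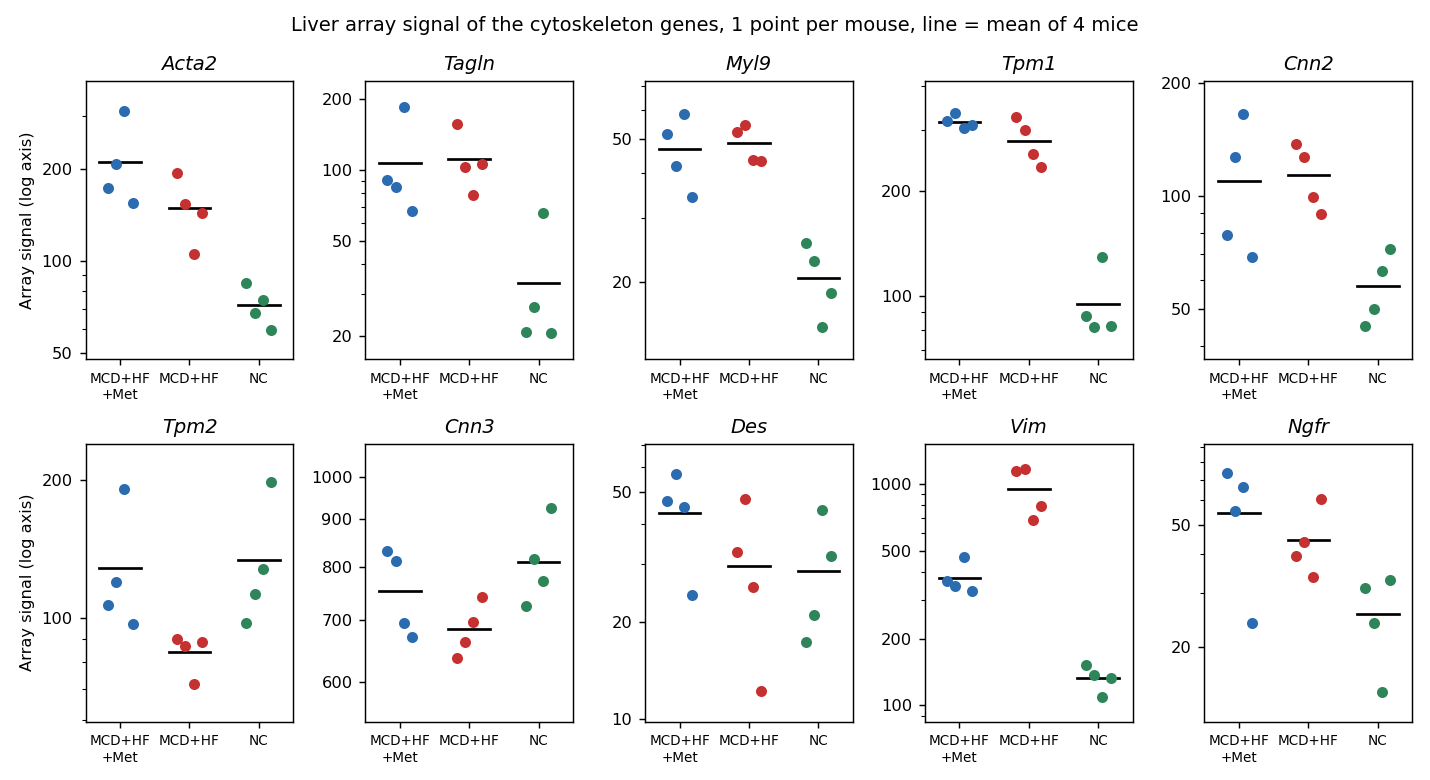
Signal intensity of the 10 genes (y axis, log scale, arrays averaging 100) in MCD+HF+Met, MCD+HF and NC livers, each point 1 mouse and each line the group mean, 4 mice per group. Vim has 3 separate groups, with means of 376.8 in MCD+HF+Met, 947.6 in MCD+HF and 132.8 in NC, while Acta2, Tagln, Myl9 and Tpm1 have both diet groups above NC.

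Some livers lay at an end of their group for many of the members. Within MCD+HF+Met, replicate 3 was highest for 6 of the 10 genes and replicate 4 lowest for 9, and within MCD+HF, replicate 1 was highest for 5, replicate 3 lowest for 5 and replicate 4 lowest for 4. These counts describe 1 liver each. They were not made over all genes tested, so whether this order was particular to the members is not known.

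The effect of the diet was read from MCD+HF against NC. Acta2, Tagln, Vim, Myl9, Tpm1 and Cnn2 rose, and Tpm2 fell, so that 6 of the 10 members were called higher and 1 lower at an adjusted p under 0.05 in the limma fit of all probe sets. Over the 11099 genes tested, 27.4% were called higher and 20.8% lower. Differences are on the scale of log2(signal + 10), which understates the change of dim genes. Folds here and below are of signal + 10 and not ratios of the signal itself. The median difference over the members was 0.90, against 0.05 over all genes tested. In RNA of a whole liver, a change in the number of cells and a change in RNA per cell cannot be told apart.

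Vim had the widest difference of the members, 2.72 ± 0.17 (SE, limma, adjusted p = 6.29e-09), a fold of 6.579. Tagln followed with 1.55 ± 0.31 (limma, adjusted p = 0.000693) and Tpm1 with 1.47 ± 0.14 (limma, adjusted p = 5.96e-07), folds of 2.935 and 2.768. Myl9, Acta2 and Cnn2 made up a group of similar size, at 0.95, 0.94 and 0.87, with 95% intervals of 0.59 to 1.31, 0.52 to 1.37 and 0.39 to 1.35 and limma adjusted p-values of 0.000306, 0.00124 and 0.00554. Every MCD+HF liver exceeded every NC liver for 7 members, those that rose and Ngfr, where 25.0% of all genes did so.

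Tpm2 was the exception in direction, at -0.57 ± 0.21 (SE, limma, adjusted p = 0.0351), and the lone member with all MCD+HF livers below all NC livers, as were 20.1% of all genes. Its call was lost without NC replicate 3 (adjusted p = 0.0586), NC replicate 4 (0.122) or MCD+HF replicates 2 (0.0596), 3 (0.0914) or 4 (0.0518), over a range of 0.0121 to 0.122 across the alternatives. Ngfr had 0.63, with an interval of 0.07 to 1.19 and an adjusted p of 0.0647 with limma. Without MCD+HF+Met replicate 4, an array that enters through the shared estimate of spread, that adjusted p was 0.0182. For Cnn3 the difference was -0.23 (-0.45 to -0.02, adjusted p = 0.0756) and for Des 0.01 (-0.61 to 0.62), both uncalled.

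Whether metformin given with the diet moved the same genes was read from MCD+HF+Met against MCD+HF. Vim fell, and it was the lone member called in either direction. Its difference was -1.29 ± 0.17 (SE, limma, adjusted p = 0.00112), a fold of 0.4103, and all MCD+HF+Met livers lay below all MCD+HF livers, as for 6.20% of all genes. With limma 0 members were called higher and 1 lower, where 1.63% of all genes tested were called higher and 2.34% lower. At an unadjusted p under 0.05 the counts were 2 higher and 1 lower. The share of all genes at that unadjusted threshold was not counted, here or for the lists below, so such counts have no background beside them. The methods' t-test after adjustment called 0 members in both directions, with Vim at 0.0971. The median over the members was 0.16, against 0.01 over all genes.

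The unadjusted pair that was higher was Acta2 and Tpm2. Acta2 was 0.46 higher with metformin, with an interval of 0.03 to 0.88 (limma, adjusted p = 0.225), and without MCD+HF+Met replicate 3 the difference was 0.26. Tpm2 was 0.52 higher (0.08 to 0.95, adjusted p = 0.185) and 0.32 higher without that replicate, and every MCD+HF+Met liver was above every MCD+HF liver, as for 6.42% of all genes. Neither passed the adjusted threshold.

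For the other contractile genes the intervals bound what 4 mice against 4 could show. They were -0.76 to 0.54 for Tagln, -0.42 to 0.30 for Myl9, -0.11 to 0.49 for Tpm1 and -0.58 to 0.38 for Cnn2. Myl9 and Tpm1 were thus bounded well short of the size at which Vim differed, while Tagln was bounded loosely. Cnn3 had 0.13 (-0.09 to 0.35), Des 0.47 (-0.14 to 1.08) and Ngfr 0.19 (-0.37 to 0.75), none called.

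Against NC, the MCD+HF+Met livers had 7 members higher and 0 lower in the limma fit, where 25.6% of all genes tested were called higher and 18.6% lower. Each comparison shares the arrays of 1 group with each of the others, so the 3 are not independent. Tpm1, a fold of 3.155 (1.66 ± 0.14, adjusted p = 2.33e-07), and Tagln, a fold of 2.725 (1.45 ± 0.31, adjusted p = 0.00143), stood beside Vim, a fold of 2.7 (1.43 ± 0.17, adjusted p = 6.29e-06), and Acta2, a fold of 2.638 (1.40 ± 0.20, adjusted p = 4.71e-05). As ratios of mean signal the changes were 3.329 for Tpm1, 3.198 for Tagln, 2.838 for Vim and 2.95 for Acta2. Myl9 had 0.89 ± 0.17 (adjusted p = 0.000641). These 5 had all MCD+HF+Met livers above all NC livers, as had 22.3% of all genes.

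Ngfr and Cnn2 also rose against NC, at 0.82 ± 0.26 (limma, adjusted p = 0.0214) and 0.77 ± 0.23 (limma, adjusted p = 0.0134), with overlapping groups. The call of Ngfr was lost without MCD+HF+Met replicate 1 (0.0735), 2 (0.0504) or 3 (0.0662) or NC replicate 3 (0.0701), over a range of 0.000898 to 0.129 across alternatives. Tpm2 had -0.05 (-0.49 to 0.38), Cnn3 -0.10 (-0.32 to 0.11) and Des 0.48 (-0.14 to 1.09). The lower count of 0 was also 0 at an unadjusted p under 0.05 and with the methods' t-test.

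**Figure D2:**
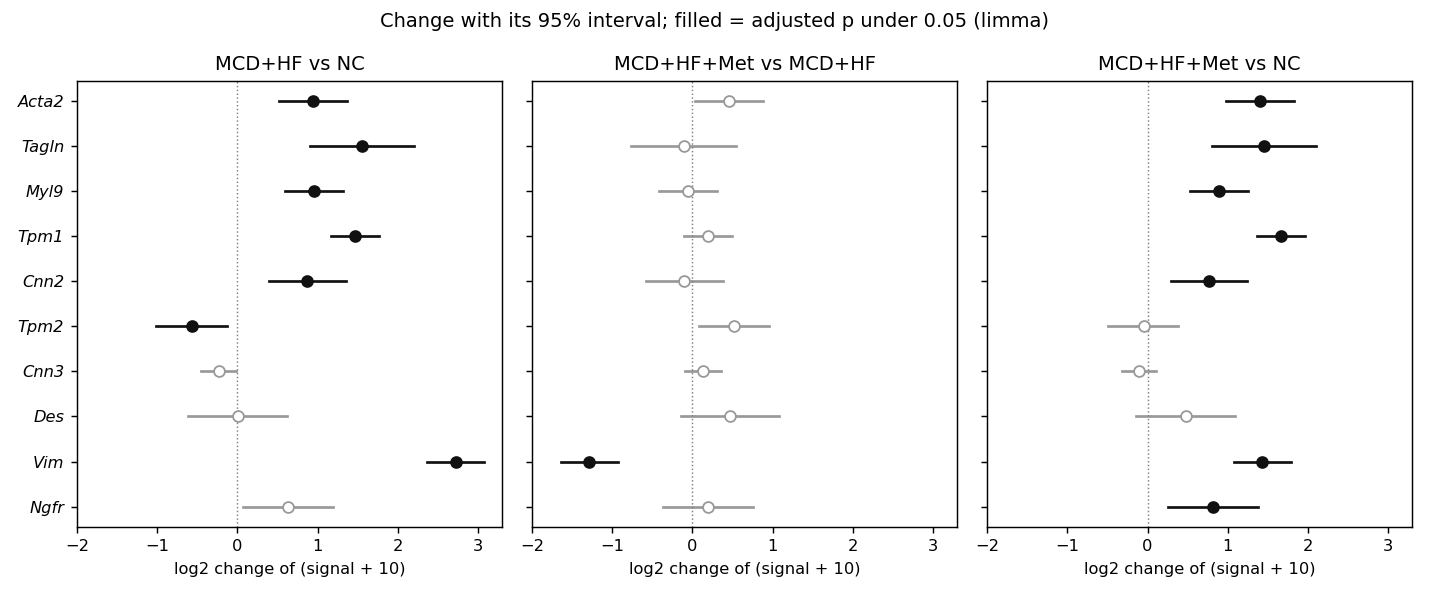
Differences on the log2(signal + 10) scale with 95% intervals for the 10 genes in 3 comparisons of 4 mice each, filled points marking a limma adjusted p under 0.05. With metformin Vim alone is called, at -1.29, while 6 genes are called higher and Tpm2 lower with MCD+HF against NC.

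Other probe sets of the same genes were read in a fit without the limit on dim signals. For Vim both agreed in direction and call: 1456292_a_at and 1438118_x_at had differences of 2.47 and 2.23 for MCD+HF against NC, and of -0.93 (limma, adjusted p = 0.0125) and -0.90 (adjusted p = 0.033) for MCD+HF+Met against MCD+HF. The second bright probe set of Tpm1, 1423049_a_at, had 1.27 (adjusted p = 0.000426) for MCD+HF against NC. Its probe set 1456623_at, with a mean signal of 27.9, had 0.68 there and was not called (limma, adjusted p = 0.0548). For MCD+HF+Met against NC 1456623_at had 0.56 and no call (limma, adjusted p = 0.123). The other probe sets of Tpm2 were lower with MCD+HF, at -0.48, -0.46 and -0.42, and none passed.

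The other probe sets of Ngfr, both dim, had -0.08 and -0.27 for MCD+HF+Met against NC and no call. For Cnn3 and Acta2, another probe set had a call that the probe set used did not share. For Cnn3, 1456380_x_at was 1.21 higher with MCD+HF than with NC (limma, adjusted p = 0.00071) and 0.88 higher with MCD+HF+Met than with NC (adjusted p = 0.00917), while the other _x_at probe sets lay between -0.15 and 0.08 for MCD+HF against NC. The suffix means that some of the probes may bind other sequences, and what it bound was not tested. For Acta2, 1456658_at, with a mean signal of 11.73, was called lower with MCD+HF (-0.58, adjusted p = 0.0499), opposite to the bright probe set and below the limit for dim signals.

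**Figure D3:**
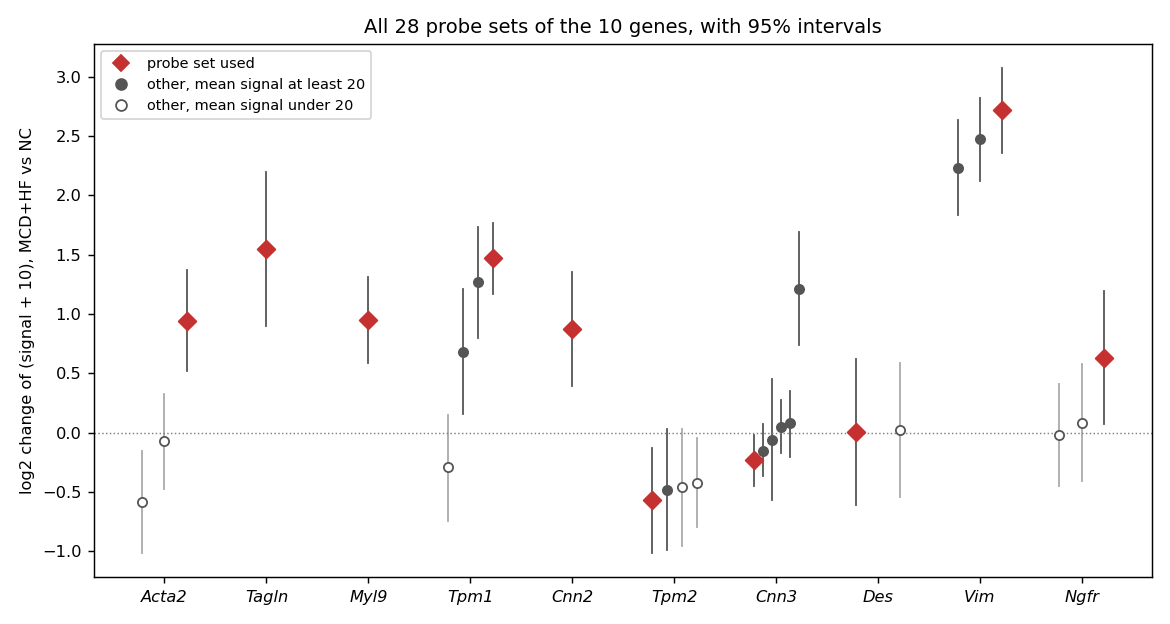
Differences on the log2(signal + 10) scale with 95% intervals for MCD+HF against NC livers (y axis), for all 28 probe sets that name a member alone (x axis, by gene), diamonds marking the probe set used and open circles those with a mean signal under 20. The 3 probe sets of Vim lie between 2.23 and 2.72, and 1 probe set of Cnn3 stands at 1.21, above its other ones.

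The wider contractile apparatus was followed through 30 further genes of smooth muscle and the actin cytoskeleton, 24 of which passed the limit on dim signals. Shares over all genes tested belong beside the counts of this list and the later ones. They were 27.4% higher and 20.8% lower for MCD+HF against NC (median 0.05) and 1.63% and 2.34% with metformin (median 0.01). For MCD+HF+Met against NC they were 25.6% and 18.6% (median 0.06). With MCD+HF against NC, 14 of the 24 genes rose and 1 fell, with a median difference of 0.47. Csrp1, a LIM protein that binds the actin cross-linker alpha-actinin, rose by 1.91, Tagln2, the transgelin of non-muscle cells, by 1.38, Tpm4, a tropomyosin of non-muscle cells, by 1.37 and the myosin light chain Myl12a by 1.11 (limma, adjusted p = 1.94e-08, 4.8e-07, 7.67e-07 and 9.05e-07). The gene called lower was Actb, the general cytoskeletal beta-actin, with 6649 in MCD+HF and 11760 in NC livers. Its difference was -0.82 (limma, adjusted p = 8.91e-07), read from 1 probe set. Other probe sets were read for the members only, so whether any other of Actb fell as well was not tested.

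With metformin 1 gene of this list rose and 0 fell in the limma fit, at a median of -0.04, against 3 and 2 at an unadjusted p under 0.05. It was Cald1, caldesmon, which binds actin and tropomyosin, with 3791 ± 398.6 in MCD+HF+Met and 2762 ± 175.7 in MCD+HF livers (SD, n = 4 each), a difference of 0.45 (limma, adjusted p = 0.0253). That call was lost without MCD+HF+Met replicates 2, 3 or 4 or without MCD+HF replicates 2, 3 or 4. Against NC, MCD+HF+Met livers had 15 of the 24 higher and 1 lower, at a median of 0.48. The 6 genes of the list under the limit of 20, named after their values were seen, include several that define mature smooth muscle: Myh11, its myosin heavy chain, Actg2, its gamma-actin, Cnn1, its calponin, Lmod1, Synpo2 and Myocd, SRF's partner in smooth muscle. Smtn, smoothelin, another gene of contractile smooth muscle and also named after its values were seen, passed it, with means of 25.27 in MCD+HF+Met, 22.88 in MCD+HF and 15.33 in NC livers and no call.

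SRF and its partner Mrtfa belong to the same list and are named for the motif above, after their values were seen. Srf had means of 92.03 in MCD+HF+Met, 71.47 in MCD+HF and 84.93 in NC livers, with no call in any comparison. Mrtfa had 59.8, 65.1 and 39.62 in the same order and rose by 0.58 with MCD+HF against NC (limma, adjusted p = 0.0178).

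Of 8 other intermediate filament genes, 6 were tested. With metformin 2 rose and 0 fell (median 0.47): Krt18, a keratin of hepatocytes and bile ducts, with 3257 ± 474.1 in MCD+HF+Met and 1994 ± 154 in MCD+HF (difference 0.70, limma, adjusted p = 0.0395), and Plec, the linker plectin, with 443.1 ± 34.88 and 317.4 ± 20.81 (0.47, adjusted p = 0.0216). The count of 2 was 0 without MCD+HF replicates 2 or 3 or MCD+HF+Met replicate 2, 1 without NC replicate 2 or any other mouse of both diet groups, and 4 without NC replicate 3. With MCD+HF against NC, the nuclear lamin Lmna rose by 0.95 (adjusted p = 4.02e-05) and Lmnb1 fell by 0.73 (adjusted p = 0.00552), 1 gene each way at a median of 0.15. Against NC, 4 were higher and 1 lower in MCD+HF+Met, at a median of 0.74.

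Ngfr was set beside the neurotrophins and their partners, of which 5 of 10 genes were tested. Bex3, which binds p75 and takes part in its signal, rose by 1.35 with MCD+HF against NC (limma, adjusted p = 1.59e-05), and Ntrk2, the receptor of brain-derived neurotrophic factor, by 0.75 (adjusted p = 0.0368), with 0 falling and a median of 0.13. The count of 2 was 1 without NC replicates 2, 3 or 4 or MCD+HF replicates 1 or 2. With metformin 0 of the 5 were called by limma in either direction, and 0 at an unadjusted p under 0.05 (median -0.15). Maged1, the brightest of the list, had means of 451 in MCD+HF+Met, 425.8 in MCD+HF and 385.2 in NC livers and no call. Against NC, MCD+HF+Met livers had Bex3 higher and Bdnf, the factor itself, lower (adjusted p = 0.031), with a list median of 0.22. Bdnf averaged 16 in MCD+HF+Met, 18 in MCD+HF and 27.45 in NC livers, under the limit in both diet groups, so that it passed through NC and the size of its difference is not measured, and it was not called without NC replicates 2 or 4 or MCD+HF+Met replicates 2 or 4.

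Markers of stellate cells that belong to no filament moved beside the members. Of 19 tested, 12 rose and 3 fell with MCD+HF against NC, at a median of 0.88. Over all genes tested, 27.4% were called higher and 20.8% lower, at a median of 0.05. Cygb, a globin of stellate cells, rose by 2.15, Pdgfrb, the receptor of platelet-derived growth factor, by 1.96, Hand2, a transcription factor of stellate cells, by 1.82 and Dcn, the proteoglycan decorin, by 1.60 (limma, adjusted p = 5.34e-07, 8.9e-08, 3.57e-08 and 2.73e-08). The 3 called lower, named after their values were seen, were Colec10 and Angptl6, at -0.81 and -0.48, and Gfap. Gfap averaged 15.55 in MCD+HF+Met, 16.07 in MCD+HF and 33.95 in NC livers and passed the limit through NC, so that the size of its difference is not measured. Summed signals of the list ran from 7998.6 to 10081.3 in MCD+HF+Met, from 9281.2 to 10163.9 in MCD+HF and from 4227.1 to 5843.8 in NC livers, so the diet groups overlapped and both cleared NC.

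With metformin 0 stellate markers rose and 2 fell, at a median of -0.19, where 1.63% of all genes tested rose and 2.34% fell. Hand2 had 184.1 ± 25.47 in MCD+HF+Met and 297.5 ± 40.28 in MCD+HF livers (difference -0.67, limma, adjusted p = 0.0129), and Dcn differed by -0.43 (adjusted p = 0.0493). The count that fell was 0 without MCD+HF+Met replicate 2 and 1 without NC replicates 2 or 4, any MCD+HF replicate or MCD+HF+Met replicates 1 or 4. At an unadjusted p under 0.05 it was 1 higher and 5 lower. Against NC, MCD+HF+Met livers had 10 of the 19 higher and 2 lower, at a median of 0.47.

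Leukocyte markers were read beside Vim, whose groups ran from MCD+HF over MCD+HF+Met to NC. The tested markers had their means in that order apart from Adgre1 and Csf1r, at 146 and 1127 in MCD+HF+Met and 189.1 and 1328 in NC livers, and S100a8, at 254 in MCD+HF+Met and 224.6 in MCD+HF livers, exceptions named after their values were seen. Of 13 tested, 12 rose and 0 fell with MCD+HF against NC (median 1.66), 0 rose and 8 fell with metformin (median -0.99, with 0 higher and 11 lower at an unadjusted p under 0.05), and 5 were higher and 0 lower in MCD+HF+Met than in NC (median 0.50, against 9 and 1 unadjusted, and 9, 9 and 8 higher in the fit of those groups alone and without MCD+HF replicates 1 or 3). Tyrobp, an adaptor of myeloid receptors, differed by -1.33 with metformin (limma, adjusted p = 0.000385), Itgb2, the common chain of leukocyte integrins, by -1.67 (adjusted p = 0.00107), Ptprc, the pan-leukocyte CD45, by -1.16 (adjusted p = 0.00131) and the brightest of the list, Ctss, the protease cathepsin S, by -1.26 (adjusted p = 0.00216). Over all genes tested, 27.4% rose and 20.8% fell with MCD+HF against NC, and 1.63% rose and 2.34% fell with metformin. The summed signal of the leukocyte list was 4300.9 to 6214.3 in MCD+HF+Met, 8201.5 to 14215.2 in MCD+HF and 3704.4 to 4459.1 in NC livers. The share of leukocytes in the Vim signal was not tested.

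The other cell types that could contribute were counted in the same way. Over all genes tested, 27.4% were called higher and 20.8% lower with MCD+HF against NC. With metformin the shares were 1.63% and 2.34%. A count of 0 in so short a list is near those shares and does not show that the cells were unchanged. With metformin, 0 of 5 cholangiocyte, 0 of 10 hepatocyte, 0 of 3 portal fibroblast and mesothelial and 0 of 2 Schwann cell markers were called, at medians of 0.00, 0.13, 0.07 and 0.07, and of 12 endothelial markers Emcn, a sialomucin, fell, at -0.62 (limma, adjusted p = 0.0146, list median 0.06), with 0 endothelial calls without MCD+HF replicate 2 or MCD+HF+Met replicate 2. At an unadjusted p under 0.05, 4 hepatocyte markers were higher and 1 lower, and 0 of the cholangiocyte, portal fibroblast and mesothelial, and Schwann cell markers passed. With MCD+HF against NC, 8 of 10 hepatocyte markers fell (median -0.93, Alb at -1.02 and the brightest, Apoa1, at -1.02), 3 endothelial markers rose and 3 fell (median 0.02, the brightest, Clec4g, at 0.01), and 2 of 3 portal fibroblast and mesothelial markers rose (Eln, elastin, by 1.90, and Entpd2 by 0.81). All 5 cholangiocyte markers tested were called higher in that comparison, but each averaged under the limit of 20 in NC livers and passed it through the diet groups, so that the size of the difference is not measured. Epcam, the brightest, had means of 108.9 in MCD+HF+Met, 149.1 in MCD+HF and 6.325 in NC livers. The same holds for Mbp of the Schwann cell list, called higher, with 48.82, 56.7 and 14.95 in the same order. Summed cholangiocyte signal was 226.5 to 508.5 in MCD+HF+Met, 352.3 to 509.0 in MCD+HF and 30.3 to 94.2 in NC livers, and summed hepatocyte signal 60521.2 to 74492.2, 54249.6 to 68572.6 and 104147.6 to 120947.3 in the same order. No marker of any list was at 0 in all livers of a group. The part of these cells in the members' differences was not tested.

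**Figure D4:**
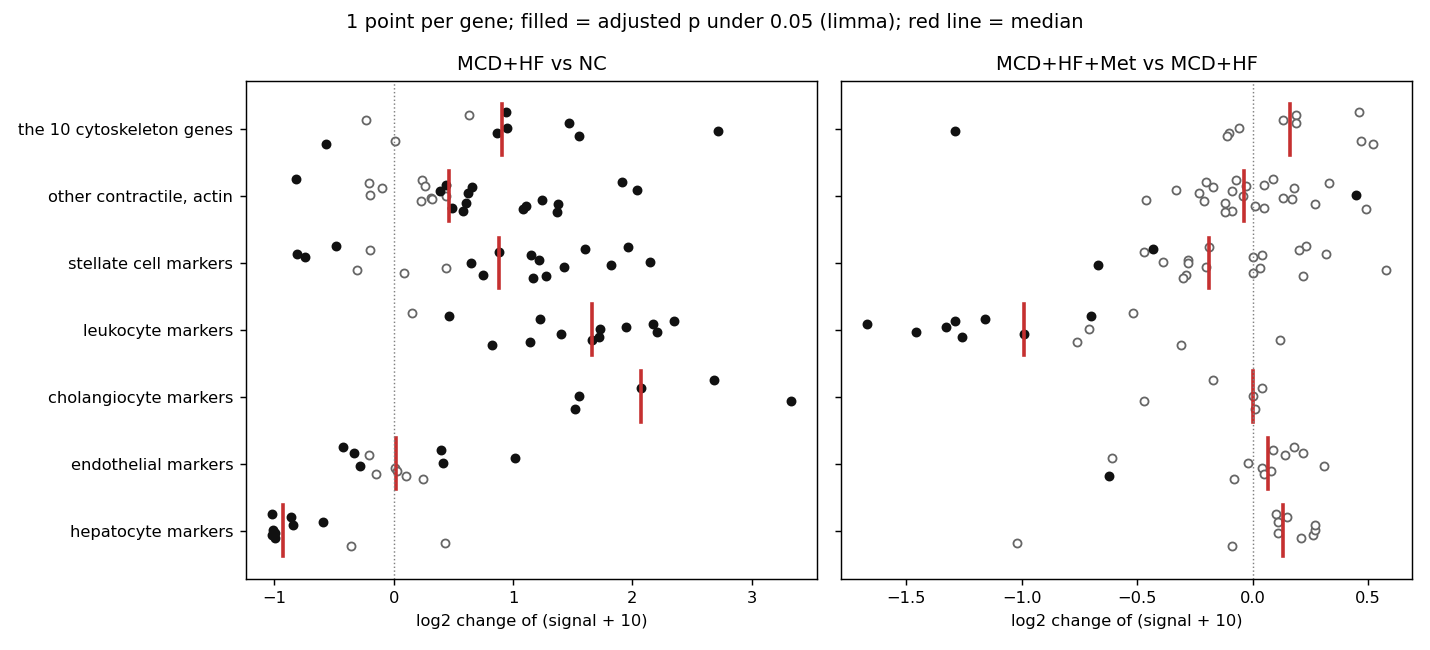
Differences on the log2(signal + 10) scale (x axis) for MCD+HF against NC (left) and MCD+HF+Met against MCD+HF (right), each point 1 tested gene of the members or of 6 lists (rows), filled at a limma adjusted p under 0.05, with the median as a red line. With metformin the leukocyte list has a median of -0.99 and the contractile list one of -0.04. The cholangiocyte genes averaged under 20 in NC livers, and Gfap of the stellate list under 20 in both diet groups. The sizes of those differences on the left are not measured.

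The genes whose signals followed each member most closely over the 12 arrays were named by Pearson's r on the log2 scale, as a description in which shared group differences count. For Vim these were Mmp12, a macrophage elastase, Cyba, a subunit of the phagocyte oxidase, and Anxa1, with r of 0.993, 0.992 and 0.991, and after removing group means r was 0.875, 0.859 and 0.864. For Acta2 they were Cdca4, Dsp and Plscr1 (0.971, 0.962 and 0.949), and for Tagln Smad7, an inhibitor of TGF-beta signalling, Gpm6b and Epha3 (0.959, 0.956 and 0.955). No gene was shared between these 3 sets. After removing group means r was 0.872, 0.888 and 0.71 for the genes of Acta2 and 0.878, 0.846 and 0.868 for those of Tagln. Values like those of Vim were thus not particular to Vim.

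Tpm1 was followed by Ly6d, Ddx39a and Ifi27l2b (0.993, 0.989 and 0.988), Myl9 by Kcnk1, ccdc198 and Igf1r (0.985, 0.985 and 0.984), Cnn2 by Atp2b1, Elk3 and Nfib (0.934, 0.927 and 0.927) and Ngfr by Uri1, Anapc7 and Ccdc50 (0.963, 0.935 and 0.901). Des, Tpm2 and Cnn3 had lower top values of r, 0.88 for Des with Kdm1b, 0.896 for Tpm2 with Txnl4b and 0.914 for Cnn3 with Uqcrc1. All 11099 genes tested were compared with each member, so high values at the top of such a ranking carry no test.

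Signs of RNA quality were read from the control probe sets. The ratio of 3′ to 5′ signal was 1.735 ± 0.1135 in MCD+HF+Met, 1.537 ± 0.06938 in MCD+HF and 1.727 ± 0.14 in NC livers for beta-actin, and 0.7574 ± 0.04509, 0.6994 ± 0.01225 and 0.7099 ± 0.01221 in the same order for Gapdh (SD, n = 4 each). For beta-actin the ratio ran from 1.62 to 1.86 in MCD+HF+Met and from 1.458 to 1.617 in MCD+HF livers, with no overlap, and from 1.538 to 1.875 in NC livers. The lowest correlation between any pair of arrays was 0.894. The part of RNA quality in the results was not tested.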

How the data were processed

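Liver RNA of 12 mice was hybridised by the authors to Affymetrix mouse genome arrays, 1 per mouse, and the deposited values are GCOS signal intensities per probe set, scaled by the authors to an array average of 100. Detection and change calls were not used. Groups came from the labels. The intensities were turned into log2(signal + 10). Of 45101 probe sets, 64 were controls and not used, and the 22830 whose signal averaged 20 or more were fitted with limma 3.58.1 in R 4.3.3 (3 groups, variance trend, Benjamini-Hochberg over all probe sets tested, threshold 0.05). The number of arrays limits the precision. Probe sets were named from the platform annotation (34945 had 1 symbol, 932 several, 9160 none), with 34741 symbols updated through gene identifiers in a RefSeq table of GRCm38.p6, which also gave promoter sequence for 9 of 10 members. Members, lists and tests were chosen with earlier results of these data known. Lists covered contractile, intermediate filament and neurotrophin genes and markers of stellate, leukocyte, endothelial, cholangiocyte, hepatocyte, portal fibroblast and mesothelial, and Schwann cells. Named genes were all members and the 3 genes most correlated with each. In the lists they were taken from the 4 genes of smallest p per comparison, with the brightest marker, and the text says where a gene outside this rule was named after its values were seen. The fit was tested on simulated data. Alternatives were other offsets (0, 32), signal limits (none, 50), quantile normalization, robust variance, a replicate block, 2 groups only, the methods' t-test alone and with its 1.5-fold rule, other probe sets and each mouse left out.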

Additional observations from a re-analysis of the deposited data

Results flagged for a closer look

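Among 30 sets of 4 livers, 1 for each member and group, 1 held a liver far from the others. It was Tpm1 in NC replicate 3, with a signal of 129.0, against 81.4 to 87.8 in the other NC livers. Chance marks about 1 set in 20 in this way. Tpm1 was called higher in both diet groups against NC under every alternative that used its brightest probe set, with this liver left out as well.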

How the results depend on the processing

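Vim, Tpm1, Myl9, Acta2, Tagln and Cnn2 kept direction and call for MCD+HF against NC under every alternative that kept their probe set, apart from Myl9 under the signal limit of 50, which removes Des, Myl9 and Ngfr. Members called higher numbered 5 to 7 over all alternatives in MCD+HF against NC and in MCD+HF+Met against NC (6 to 7 with 1 mouse left out in each). Members called lower with MCD+HF were 0 without the signal limit, with the methods' t-test and with its 1.5-fold rule, and 0 to 1 with 1 mouse left out. Vim was called lower with metformin under every alternative that kept its probe set (1 to 1 with 1 mouse left out) except with the methods' t-test (0 members, Vim at 0.0971 after adjustment), where 3 probe sets were called higher and 5 lower against 282 and 504 with limma, and 166 and 310 without the signal limit. Cnn2 and Ngfr against NC in MCD+HF+Met missed with that t-test (0.106 and 0.129), and the 2-group fit called Ngfr for MCD+HF (0.0318). The causes were not tested. Deviations from the group means had r from -0.134 to 0.251 between arrays of the same replicate number, with 2 of 12 pairs over 0.1. For arrays of different numbers r ran from -0.214 to 0.132, below the highest same-numbered value. Whether the mice were paired is not known from these values. With the replicate block 6 members were higher and 1 lower with MCD+HF, 0 and 1 with metformin, and 7 and 0 in MCD+HF+Met against NC. Probe sets called with metformin were then 261 and 464.

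Some differences turned sign. For MCD+HF against NC, Des was -0.02 with offset 0, -0.07 with quantile normalization and -0.20 to 0.26 with 1 mouse left out. With metformin, Myl9 was 0.02 with quantile normalization, and with 1 mouse left out Myl9 ranged from -0.16 to 0.05, Tagln from -0.38 to 0.06 and Cnn2 from -0.31 to 0.08. For MCD+HF+Met against NC, Tpm2 was -0.25 to 0.14 with 1 mouse left out. Other probe sets of opposite sign gave, for MCD+HF against NC, -0.07 and -0.58 (Acta2), -0.29 (Tpm1), 0.05, 0.08 and 1.21 (Cnn3) and -0.02 (Ngfr), with metformin -0.10 (Des), -0.24, -0.04 and -0.12 (Tpm1), -0.33 (Cnn3), -0.25 and -0.17 (Ngfr), and for MCD+HF+Met against NC -0.04 and -0.53 (Acta2), -0.08 (Des), -0.34 (Tpm1), 0.13, 0.18, 0.22 and 0.88 (Cnn3), -0.27 and -0.08 (Ngfr). The other probe sets of Acta2, Des and Ngfr were dim, and those of Cnn3 were not. With metformin the methods' t-test after adjustment called 0 genes of any list in either direction, the leukocyte markers among them.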
